A study of Mus musculus with 10 samples.

Results

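The 6 mouse Iroquois genes, Irx1 to Irx6, were examined in RNA-seq of YFP-positive spinal cord cells at e10.5. They were 6 of the 48972 genes with counts, and 5 of them, all but Irx4, passed the filter on low counts that left 17835 genes to test. The family members were taken by name. The family itself was chosen by the difference of Irx6 between control and cdKO samples in these same data, so the values of Irx6 in that contrast are given as a description, without a test. The study compared 5 control with 5 cdKO samples to look for genes downstream of the Onecut factors during motor neuron (MN) differentiation. All embryos carried Olig2-Cre+/- and Rosa26R-YFP+/-. Control embryos were Oc1+/Flox and Oc2+/Flox, so that Cre could remove a single copy of each gene, and cdKO embryos were Oc1-/Flox and Oc2-/Flox, with null alleles that all their cells carry. Olig2-Cre is active in MN progenitors, and the study also saw YFP ventral to MNs, in V3 interneurons (INs), so the sorted cells were not MNs alone. Whether a sample held 1 embryo or a pool was not given in the sources used here, and p-values measure the spread between these samples only, which may be technical. Means are given ± SD over the 5 samples of a group, and log2 fold changes, cdKO over control, ± their standard error (SE). In such bulk samples, fewer cells that express a gene and less of its RNA per cell cannot be told apart.

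Iroquois genes encode homeodomain transcription factors of the TALE class, in which the homeodomain carries an extra loop, and act in the patterning of the neural tube, heart and limb. In mouse they lie in 2 clusters of 3 genes, IrxA (Irx1, Irx2 and Irx4) and IrxB (Irx3, Irx5 and Irx6), which arose by duplication. In the ventral neural tube, Irx3 is expressed in progenitors dorsal to the MN progenitor domain, and Irx3 and Olig2 repress each other across that border.

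On GRCm38, IrxA lies on chr13, with Irx1 (ENSMUSG00000060969) at 71957921 to 71963723 on the minus strand, Irx2 (ENSMUSG00000001504) at 72628820 to 72634198 on the plus strand and Irx4 (ENSMUSG00000021604) at 73260479 to 73269608 on the plus strand. IrxB lies on chr8, with Irx3 (ENSMUSG00000031734) at 91798525 to 91802067 on the minus strand, Irx5 (ENSMUSG00000031737) at 92357625 to 92376286 on the plus strand and Irx6 (ENSMUSG00000031738) at 92674288 to 92680956 on the plus strand. Neighbouring members were 665.1 kb (Irx1 and Irx2), 626.28 kb (Irx2 and Irx4), 555.56 kb (Irx3 and Irx5) and 298 kb (Irx5 and Irx6) apart.

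How alike the members are bears on whether their reads can be told apart, so the 60 coding bases of the third, DNA-contacting helix of the homeodomain are shown, from the GENCODE M21 transcripts on GRCm38. They are written 5′ to 3′ on each gene's own strand, and capitals mark the bases that differ from Irx6, with exons numbered within the transcript.
Irx6 (chr8:92677362-92677421, plus strand, exon 4 of 6): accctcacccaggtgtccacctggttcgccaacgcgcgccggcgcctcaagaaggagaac
Irx3 (chr8:91800499-91800558, minus strand, exon 2 of 4): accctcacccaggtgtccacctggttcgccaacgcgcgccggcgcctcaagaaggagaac
Irx5 (chr8:92359753-92359812, plus strand, exon 2 of 5): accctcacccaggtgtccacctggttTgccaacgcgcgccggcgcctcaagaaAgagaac
Irx1 (chr13:71959995-71960054, minus strand, exon 2 of 4): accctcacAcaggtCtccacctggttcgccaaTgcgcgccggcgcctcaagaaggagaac
Irx2 (chr13:72630790-72630849, plus strand, exon 2 of 5): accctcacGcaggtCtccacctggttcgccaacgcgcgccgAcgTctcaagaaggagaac
Irx4 (chr13:73267649-73267708, plus strand, exon 5 of 6): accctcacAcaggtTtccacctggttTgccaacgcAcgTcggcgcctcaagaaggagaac
Irx3 and Irx6 had the same 60 bases, Irx5 differed from Irx6 at 2 of them, Irx1 at 3, Irx2 at 4 and Irx4 at 5, and all 6 stretches encode the same 20 residues. Over whole transcripts, the longest stretch shared without a mismatch was 88 bases, between Irx3 and Irx6, followed by 65 bases between Irx2 and Irx5, and the other pairs shared 50 bases or fewer. Both are shorter than a read of 150 bases.

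The deposited totals over exon bins ranged from 63932395 to 107709534 per sample. The labels were checked on the targeted gene first. Exon 1 of Oc1 had 63 to 210 counts across control samples, and cdKO replicates 1 to 5 had 0, 17, 0, 3 and 0. The third Onecut gene, Oc3, had 29 to 68 counts across control and 0 to 3 across cdKO samples, whereas Oc2 ranged from 0.988 to 9.39 CPM (counts per 1000000 of the library, with library sizes scaled by TMM) in control and from 1.35 to 19.2 CPM in cdKO samples. The MN genes Isl1, at 225 ± 80.5 CPM, and Mnx1, at 55.5 ± 16.6 CPM, were abundant in control samples, and genes of progenitors were present too. Replicate 5 of cdKO stood apart from the other libraries, with counts on 198569 bins against 243970 to 271591 in the others, a TMM factor of 0.717 against 0.947 to 1.17, and coverage moved towards the 3′ ends of genes. The ratios of the members' means are given with and without it.

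Irx6, the third gene of IrxB, was low in control samples and lower still in cdKO samples, where it had 30 counts or fewer. Control replicates 1 to 5 had 332, 140, 92, 71 and 49 counts of Irx6, and cdKO replicates 1 to 5 had 10, 30, 27, 30 and 4. This gave 3.33, 1.34, 1.05, 0.963 and 0.724 CPM in control samples and 0.127, 0.357, 0.332, 0.358 and 0.0788 CPM in cdKO samples. Every control sample was above every cdKO sample, and control replicate 1 was more than 2-fold above the next. The mean was 1.48 ± 1.06 CPM in control and 0.250 ± 0.136 CPM in cdKO samples, a ratio of 0.169. The log2 fold change fitted by edgeR was -2.55 ± 0.59 (SE). The ratio of means was 0.246 without control replicate 1 and 0.198 without cdKO replicate 5. Across the genes tested, 0.224% (40 of 17835) had all cdKO samples below all control samples. Irx6 had been picked from that end of the data, and nothing is read from its being among them.

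The last exon of Irx6 shares 785 bases of gene with Gm45505, an annotated antisense gene, and the bin concerned held 17.6% of the counts of Irx6. Strand had no part in the counting, as each of the 16 bins present on both strands showed equal counts on either strand in the 10 samples, so reads of the antisense gene there would have been added to Irx6. Without this bin, Irx6 was at 1.24 ± 0.886 CPM in control and 0.186 ± 0.131 CPM in cdKO samples. The ratio was then 0.151, the log2 fold change was -2.70 ± 0.76 (SE), and the groups still did not overlap. All 4 counts of Irx6 in cdKO replicate 5 lay on this bin. The 0 counts left without it allow up to 3 counts, or 0.0591 CPM, for counting error only. The single bin of Gm45505 that lies outside Irx6 received 0 counts in all 10 samples.

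The difference was present along the length of Irx6. From the 5′ end, the mean CPM of cdKO samples was 0.0945, 0.267, 0.164, 0.206, 0.0998 and 0.242 times that of control samples on exons 1 to 6. Groups did not overlap on exons 1, 3, 4 and 5 and overlapped on exons 2 and 6. Exon 1, which holds no antisense annotation, had 61, 21, 16, 16 and 14 counts across control replicates 1 to 5, and 3, 3, 2, 3 and 0 across cdKO replicates 1 to 5. The counts per exon were few, from 10 to 17 in all cdKO samples together on exons 1 to 5 and 31 on exon 6.

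**Figure D1:**
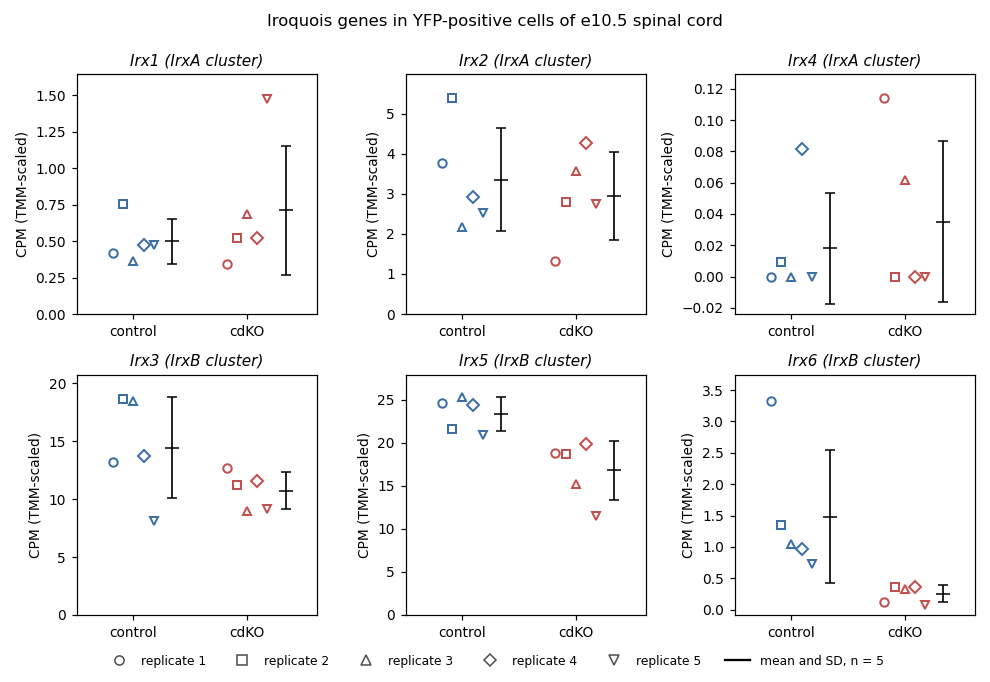
Level of each Iroquois gene in CPM (vertical axis) in the 5 control (blue) and 5 cdKO (red) samples; symbols stand for the replicate, and black bars give the mean and SD, n = 5. Control and cdKO samples do not overlap for Irx5 (20.9 to 25.3 against 11.4 to 19.9) and Irx6 (0.724 to 3.33 against 0.0788 to 0.358), and overlap for the other 4 genes.

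Irx5, which lies next to Irx6 and was the most abundant member, was also lower in every cdKO sample than in every control sample, by a much smaller factor than Irx6, and so was among the 0.224% of genes separated in that direction. It stood at 24.6, 21.6, 25.3, 24.4 and 20.9 CPM in control replicates 1 to 5 and at 18.8, 18.6, 15.1, 19.9 and 11.4 CPM in cdKO replicates 1 to 5. The control samples lay close together, and cdKO replicate 5 was the lowest. The mean was 23.4 ± 1.97 CPM in control and 16.8 ± 3.47 CPM in cdKO samples, a ratio of 0.718, or 0.775 without cdKO replicate 5. Its log2 fold change was -0.48 ± 0.25 (SE) and did not pass the test. edgeR gave an adjusted p of 0.943 (quasi-likelihood test, Benjamini-Hochberg over 17835 genes), and Irx5 was not under 0.05 before adjustment either. No gene passed at an adjusted p under 0.05 (0%, 0 of 17835). That includes Oc3, with a log2 fold change of -5.08 ± 0.76 (SE, edgeR, adjusted p = 0.111). The targeted gene Oc1, summed over all its exons, was at -1.11 ± 0.46 (SE, edgeR, adjusted p = 0.938). Not passing the test therefore does not show that a gene or list was unchanged. At an unadjusted p under 0.05 there were 888 genes (4.98%). Of these 743 were higher and 145 lower in cdKO samples, a balance that moved to 380 and 253 when only library size was used for scaling, and to 107 and 318 when cdKO replicate 5 was dropped. DESeq2 called 20 genes and limma-voom with sample quality weights 13, and Irx1, Irx2, Irx3 and Irx5 passed under none of the settings tried. Over those settings the adjusted p of Irx5 ranged from 0.492 to 0.9999.

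The separation of Irx5 depended on the scaling. With DESeq2's size factors the groups did not overlap, at 20.5 to 25.2 against 11.9 to 19.7, and with library size alone they did, at 20.9 to 28.4 in control against 8.20 to 21.4 in cdKO samples. By exon, the cdKO mean was 0.604 and 0.619 times the control mean on exons 1 and 2, and 0.793 times on exon 3, the 3′ exon that held 59.7% of the counts. Without cdKO replicate 5 these ratios were 0.721, 0.754 and 0.799. The groups overlapped on each of the 3 exons, by 1 control sample or more, and on exon 3 they spanned 11.9 to 14.9 CPM in control and 9.25 to 12.0 CPM in cdKO samples. In cdKO replicate 5, exons 1 and 2 were at 0.532 and 0.473 CPM, whereas in the other cdKO samples they were at 2.29 to 3.30 and 3.61 to 5.07 CPM. Exons 4 and 5 of Irx5, annotated downstream of exon 3, received 8 and 3 counts over all 10 samples.

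**Figure D2:**
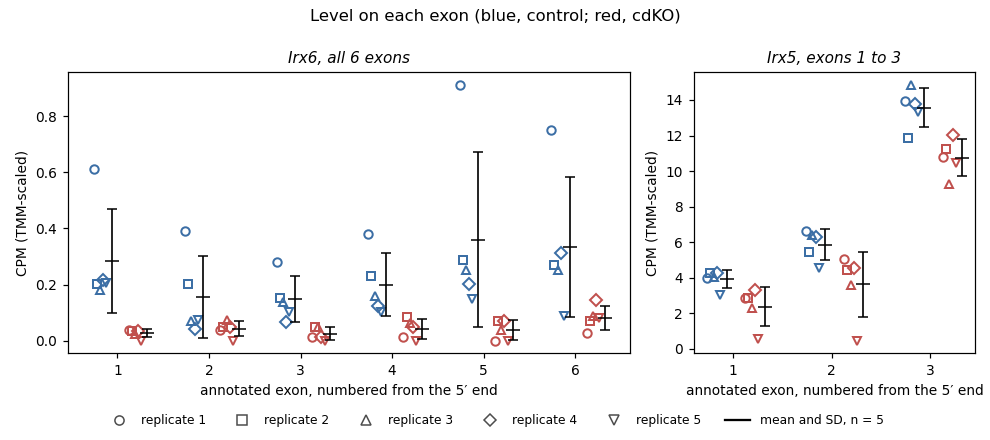
Level on each annotated exon of Irx6 (left) and on exons 1 to 3 of Irx5 (right), in CPM, for control (blue) and cdKO (red) samples; symbols stand for the replicate, and black bars give the mean and SD, n = 5. For Irx6 the cdKO mean is between 0.0945 and 0.267 times the control mean on each exon, and for Irx5 cdKO replicate 5 lies apart from the other cdKO samples on exons 1 and 2 but not on exon 3.

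Irx3, the third member of IrxB and a progenitor gene of the ventral neural tube, did not pass the test between groups. It was at 13.2, 18.7, 18.5, 13.7 and 8.14 CPM in control replicates 1 to 5 and at 12.7, 11.2, 8.99, 11.6 and 9.16 CPM in cdKO replicates 1 to 5. Control replicate 5 was the lowest of all 10 samples, and the other 4 control samples were above every cdKO sample. The mean was 14.5 ± 4.37 CPM in control and 10.7 ± 1.60 CPM in cdKO samples, with a log2 fold change of -0.43 ± 0.29 (SE, edgeR, adjusted p = 0.982). The ratio of means was 0.742, or 0.769 without cdKO replicate 5. The bin of Irx3 that overlaps an exon of the antisense gene Irx3os held 50.2% of its counts. Without it, the log2 fold change was -0.35 ± 0.31 (SE). The bin of Irx3os inside Irx3 received 57 to 277 counts in control and 4 to 160 counts in cdKO samples, whereas each bin of Irx3os outside Irx3 received 10 counts or fewer in any sample.

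The IrxA genes were lower than Irx3 and Irx5, and neither Irx1 nor Irx2 passed the test between groups. Irx2 stood at 3.77, 5.39, 2.16, 2.93 and 2.53 CPM in control replicates 1 to 5 and at 1.33, 2.80, 3.58, 4.28 and 2.74 CPM in cdKO replicates 1 to 5. The ranges covered each other, with a log2 fold change of -0.19 ± 0.39 (SE, edgeR, adjusted p = 0.997), and its sign depended on the setting. The ratio of means was 0.877, or 0.893 without cdKO replicate 5. Irx1 was at 0.421, 0.757, 0.364, 0.475 and 0.473 CPM in control replicates 1 to 5 and at 0.343, 0.523, 0.688, 0.525 and 1.48 CPM in cdKO replicates 1 to 5. Only cdKO replicate 5 lay above all control samples. Irx1 had a log2 fold change of 0.51 ± 0.49 (SE, edgeR, adjusted p = 0.997), and the ratio of means fell from 1.43 to 1.04 without that sample.

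Irx4, which is best known from the ventricles of the heart, was barely detected. Control replicates 1 to 5 had 0, 1, 0, 6 and 0 counts of Irx4, and cdKO replicates 1 to 5 had 9, 0, 5, 0 and 0. Counts were found in 4 of the 10 libraries, at no more than 0.114 CPM, and were 21 in all, spread over 5 of its 6 exons. A count of 0 allows up to 3 counts per library, 0.0288 to 0.0591 CPM, so no comparison between groups was detectable at this depth.

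Summed over the 3 genes of a cluster, the mean log2 level of IrxB was lower in cdKO than in control samples by more than the spread within groups (a difference of -0.51 against a pooled SD of 0.25), and that of IrxA was within its spread (-0.08 against 0.54). IrxB was at 41.1, 41.6, 44.9, 39.0 and 29.8 CPM in control replicates 1 to 5 and at 31.6, 30.2, 24.5, 31.8 and 20.7 CPM in cdKO replicates 1 to 5. Control replicate 5 lay within the cdKO range and the other control samples above it. The mean was 39.3 ± 5.71 CPM in control and 27.8 ± 4.95 CPM in cdKO samples, a ratio of 0.706, or 0.751 without cdKO replicate 5. Irx3 and Irx5 supplied nearly all of it, so the sum is not a readout of Irx6. A score over the members has no test here, because Irx6 chose the family.

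IrxA was at 4.19, 6.16, 2.52, 3.48 and 2.999 CPM in control replicates 1 to 5 and at 1.79, 3.32, 4.32, 4.80 and 4.21 CPM in cdKO replicates 1 to 5, a ratio of means of 0.953, or 0.919 without cdKO replicate 5. The log2 ratio of IrxB over IrxA was 3.40 ± 0.50 in control and 2.97 ± 0.73 in cdKO samples. The difference of -0.43 was smaller than the spread between replicates of either group, and it was -0.26 without cdKO replicate 5. Divided by the length of the counted exons the ratios of means were 0.709 for IrxB and 0.977 for IrxA.

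**Figure D3:**
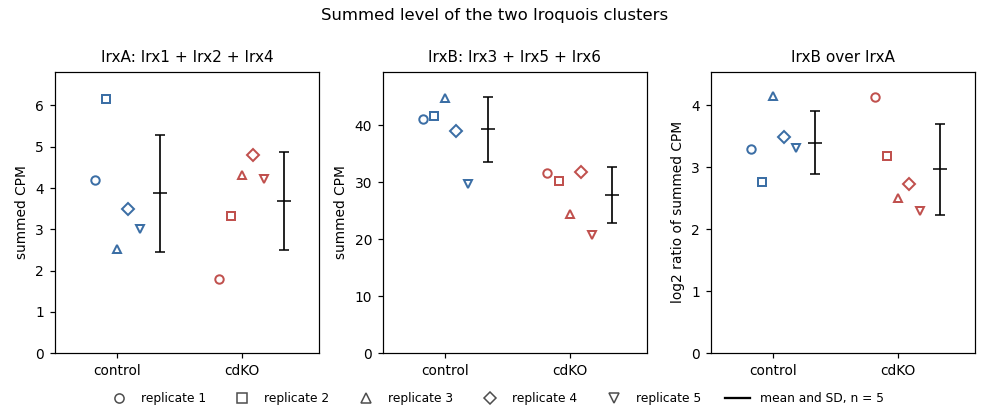
Summed level of IrxA (left) and IrxB (middle) in CPM, and the log2 ratio of IrxB over IrxA (right), in each control (blue) and cdKO (red) sample; symbols stand for the replicate, and black bars give the mean and SD, n = 5. IrxB ranges from 29.8 to 44.9 in control and from 20.7 to 31.8 in cdKO samples, and the IrxA ranges and the log2 ratios overlap widely.

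The level per kilobase of counted exon, in CPM per kb, put the members in nearly the same order in both groups. In control samples Irx5 had 7.47 ± 0.630, Irx3 5.23 ± 1.58, Irx2 1.02 ± 0.392, Irx6 0.440 ± 0.314, Irx1 0.210 ± 0.0640 and Irx4 0.00698 ± 0.0136 CPM per kb. In cdKO samples the levels were 5.36 ± 1.11 for Irx5, 3.88 ± 0.581 for Irx3, 0.897 ± 0.335 for Irx2, 0.2997 ± 0.188 for Irx1, 0.0743 ± 0.0404 for Irx6 and 0.0135 ± 0.0198 for Irx4. Over all 10 samples, each of the 10 pairs of members other than Irx6 differed in an exact two-sided sign-flip permutation test on log2(CPM per kb + 0.05). The adjusted p was 0.00225 for each, after Benjamini-Hochberg adjustment over all 15 pairs of the 6 members, and 0.00195 was the smallest p that 10 samples allow. The test measures how steady the ratio of 2 genes is across libraries. A bias particular to a gene, such as reads counted on several bins or shared with an antisense gene, would pass it too. The pairs with Irx4 add little, as Irx4 reached at most 0.0438 CPM per kb, below the added 0.05. The pairs with Irx6 are given without a test, since its values chose the family. Irx5 was above Irx3 in 10 of 10 samples, by 0.51 ± 0.33 (SD, n = 10) on the log2 scale, and Irx3 was above Irx2 in 10 of 10 by 2.22 ± 0.62 (SD, n = 10).

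Irx1 and Irx6 were in a different order in the groups, which restates the difference of Irx6. The log2 ratio of Irx1 over Irx6 averaged -0.76 in control and 1.43 in cdKO samples. Counted as a share of the summed CPM per kb of the family, Irx5 made up 52.7% ± 6.82 in control and 50.5% ± 4.21 in cdKO samples, and Irx3 35.7% ± 6.52 and 36.9% ± 3.06. The share of Irx6 was 6.61, 2.49, 1.95, 2.02 and 1.98% in control replicates 1 to 5 and 0.336, 0.945, 1.03, 0.871 and 0.276% in cdKO replicates 1 to 5. Its share was thus nearly the same in the 4 control samples other than replicate 1, and below them in all cdKO samples.

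Coverage along the members differed in cdKO replicate 5. The 3′ exon held 91.2% of the counts of Irx5 in that sample, compared with 57.7 to 61.1% in cdKO replicates 1 to 4 and 55.1 to 63.7% in control samples. For Irx3 it held 25.4%, where cdKO replicates 1 to 4 had 12.5 to 14.8% and control samples 11.1 to 20.9%. For Irx6 it held 100%, on 4 counts, against 20 to 40% in cdKO replicates 1 to 4 and 12.2 to 32.4% in control samples. For Irx2 it held 63.3%, against 19.9 to 43.9% in the other 9 samples. Exons 1 and 3 of the 6 counted for Irx2 had 0 counts in cdKO replicate 5 and counts in the other 9. Among control samples, replicate 5 had the highest share for Irx2, Irx3 and Irx5 and the lowest for Irx6. On the 3′ exon alone, the ratio of mean CPM was 0.242 for Irx6, 0.793 for Irx5, 0.776 for Irx3, 1.06 for Irx2 and 1.45 for Irx1, with groups that overlapped. Without cdKO replicate 5 these ratios were 0.244, 0.799, 0.697, 0.840 and 0.658. The ratios of Irx2 and Irx1 were thus above 1 only with that sample. The 3′ exon of Irx6, with 23.6% of its counts, includes the bin shared with Gm45505.

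**Figure D4:**
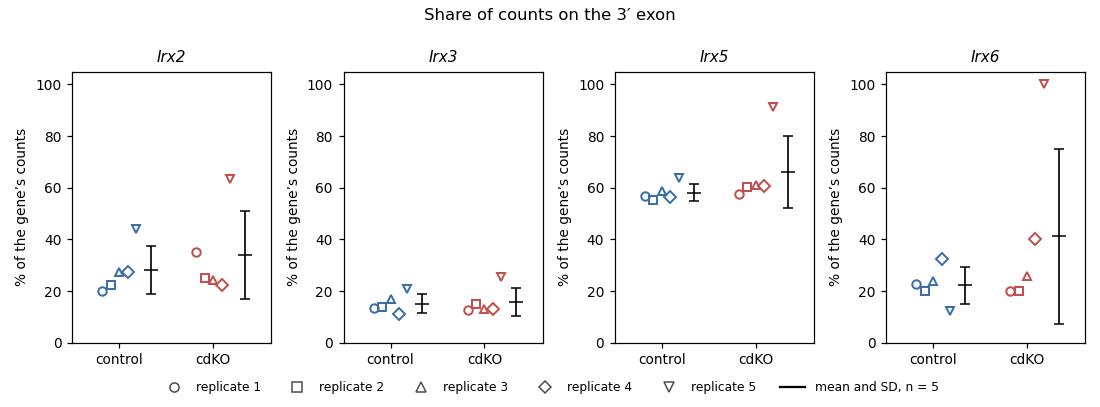
Percentage of a gene's counts that lies on its 3′ exon (vertical axis) for Irx2, Irx3, Irx5 and Irx6 in each control and cdKO sample; symbols stand for the replicate, and black bars give the mean and SD, n = 5. Replicate 5 of cdKO is the highest sample for each gene, at 63.3, 25.4, 91.2 and 100%.

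**Figure D5:**
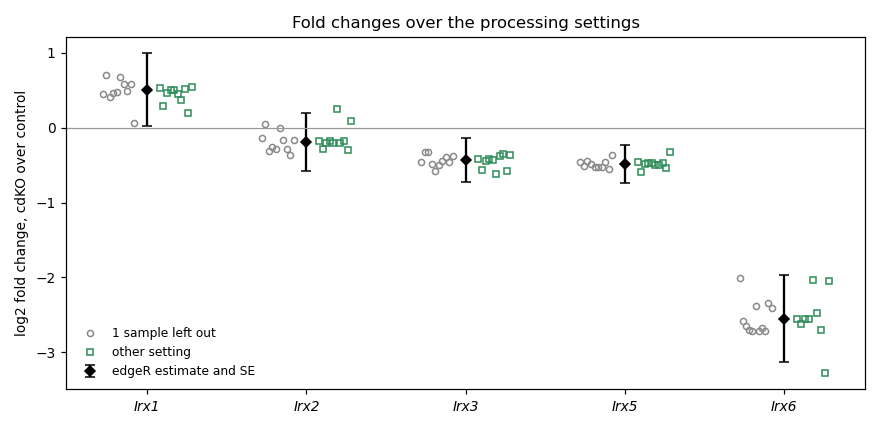
Log2 fold change, cdKO over control (vertical axis), of the 5 tested Iroquois genes, as estimated by edgeR with its SE (black), with 1 sample left out (grey circles) and under the other processing settings (green squares). Irx3, Irx5 and Irx6 stay below 0 under each setting, with Irx6 between -3.28 and -2.01, Irx1 stays above 0, and Irx2 lies on both sides.

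The members varied together to different degrees over the 10 samples. In log2(CPM + 0.5), Pearson's r was 0.75 for Irx5 and Irx6 (Spearman's rank correlation 0.90) and 0.64 for Irx3 and Irx5 (rank correlation 0.71), and with group means removed r was 0.35 and 0.47. Within IrxA, r was 0.33 for Irx1 and Irx2, and 0.79 without cdKO replicate 5. Irx1 and Irx5 had r = -0.81, which moved to -0.45 without that sample. These are descriptions of 10 points that share library, depth and group.

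Among the 13539 tested genes of at least 1 CPM, those most like each member over the 10 samples were listed by Pearson's r in log2(CPM + 0.5). For Irx6 they were Ppp2r2b (r = 0.89), a regulatory subunit of protein phosphatase 2A, Bhlhe23 (0.88), a basic helix-loop-helix transcription factor, and Rprm (0.87), a cell cycle inhibitor. With group means removed these fell to 0.66, 0.54 and 0.46. For Irx5 they included Rac1 (0.94), a small GTPase, and Patj (0.93), with 0.95 and 0.94 once group means were removed. Irx3 was closest to the splicing factor gene Sf3b2 (0.89), Zswim9 (0.88) and 4932702P03Rik (0.88), and Irx2 to Mtss1l (0.87), Dcbld2 (0.86) and Rnf217 (0.84). Irx1 was closest to Lsm12 (0.95), Rln1 (0.94) and Snhg18 (0.93), with 0.81, 0.78 and 0.70 without cdKO replicate 5. All these genes are the top of a ranking of 13539 genes over 10 samples. Such a ranking reaches high r without any link between genes, and no r here was tested.

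Genes around the clusters were counted where their annotated start lay within 1000 kb of a member. Of the protein-coding neighbours of IrxB, 7 of 19 were tested and 0 passed in either direction (edgeR, adjusted p under 0.05, and 0 at an unadjusted p under 0.05), with a median log2 fold change of 0.00088 against -0.018 over all genes. Fto, the RNA demethylase gene whose introns hold enhancers of Irx3 and Irx5, was at 92.6 ± 30.5 CPM in control and 92.7 ± 50.4 CPM in cdKO samples. Aktip was at 117 ± 22.1 and 121 ± 12.96 CPM, and the chromatin remodeller gene Chd9 at 17.2 ± 9.10 and 12.8 ± 6.59 CPM. Thus the measured protein-coding genes beside IrxB had a median difference near 0.

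Of the non-coding neighbours of IrxB, 9 of 53 were tested and 0 passed (0 also at an unadjusted p under 0.05), with a median log2 fold change of -0.25. Their summed level was 30.9 to 51.2 CPM in control and 22.9 to 28.9 CPM in cdKO samples, and the ranges did not overlap. The sums of every other gene list examined here overlapped between groups, and the separation was not tested. Crnde, a long non-coding RNA gene next to Irx5, supplied most of this sum, with 25.2 ± 10.3 CPM in control and 15.4 ± 5.79 CPM in cdKO samples. Its log2 fold change was -0.71 ± 0.35 (SE, edgeR, adjusted p = 0.938), and its groups overlapped. Irx3os, which shares counts with Irx3, had a log2 fold change of -0.56 ± 0.52 (SE, edgeR, adjusted p = 0.997), and 4831440D22Rik was at 6.26 ± 2.08 CPM in control and 6.23 ± 3.94 CPM in cdKO samples.

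Around IrxA, 12 of 17 protein-coding neighbours were tested, with a median log2 fold change of -0.044. None passed by edgeR's adjusted p, and 1 was higher at an unadjusted p under 0.05. Their most abundant members were Clptm1l, at 149.9 ± 28.8 CPM in control and 150.6 ± 55.1 CPM in cdKO samples, Exoc3, at 97.4 ± 16.7 and 92.7 ± 21.2 CPM, and Ndufs6, a gene of mitochondrial complex I, at 88.3 ± 23.3 and 199.99 ± 224 CPM. Ndufs6 was the gene under an unadjusted p of 0.05, and its cdKO mean rested on a single library of 599.65 CPM, with a log2 fold change of 1.18 that was 0.19 without cdKO replicate 5. Of 26 non-coding neighbours 4 were tested and 0 passed at either threshold. The largest of these, Gm10263, was at 1.01 ± 0.307 CPM in control and 1.16 ± 0.768 CPM in cdKO samples.

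The transcription factors that pattern the ventral progenitors include Olig2 and other genes with borders near that of Irx3. Of 15 listed, 14 were tested, and 0 passed in either direction by edgeR, also at an unadjusted p under 0.05, with a median log2 fold change of -0.31. Olig2, the gene of the MN progenitor domain, was at 66.0 ± 19.0 CPM in control and 46.6 ± 19.3 CPM in cdKO samples, or -0.50 ± 0.34 on the log2 scale (SE, edgeR, adjusted p = 0.982). Pax6, at 58.5 ± 17.1 and 48.2 ± 20.1 CPM, Nkx6-1, at 32.3 ± 7.84 and 29.1 ± 14.4 CPM, and Nkx6-2, at 28.3 ± 15.3 and 37.0 ± 7.39 CPM, did not pass either. Olig1 was at 8.95 ± 3.42 and 7.04 ± 1.60 CPM and the p3 gene Nkx2-2 at 9.80 ± 3.38 and 10.3 ± 2.54 CPM. Dbx2, a gene of more dorsal progenitors, was at 1.58 ± 0.309 and 1.71 ± 0.824 CPM, and Pax7 had 0 counts in every sample.

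The summed level of this progenitor list was 186 to 420 CPM in control and 162 to 286 CPM in cdKO samples. It was highest in control replicate 5, where Irx3 was lowest. It was lowest in cdKO replicate 3, where Irx3 was next lowest, at 8.99 CPM. MN genes summed to 584 to 1017 CPM in control and 523 to 1055 CPM in cdKO samples, with 12 of 12 tested and 0 passing (edgeR, 1 lower at an unadjusted p under 0.05) and a median log2 fold change of 0.0068. The 1 lower gene was Isl1, at 225 ± 80.5 CPM in control and 127 ± 32.9 CPM in cdKO samples. Its log2 fold change was -0.82 ± 0.31 (SE, edgeR, adjusted p = 0.938), and its groups overlapped. V2 interneuron genes summed to 57.2 to 150 and 61.0 to 218 CPM, with 9 of 9 tested, 0 passing and 1 higher at an unadjusted p under 0.05, a median log2 fold change of 0.54 and 8 of 9 above 0. Of the V0, V1 and V3 interneuron genes 3 of 9 were tested and 0 passed, and the 9 summed to 21.7 to 100.1 and 18.9 to 38.8 CPM. Most of that sum came from Nkx2-2 and Nkx2-9, which are also in the progenitor list. Nkx2-9 was at 26.3 ± 32.6 CPM in control samples, with a maximum of 84.5, and at 14.7 ± 8.24 CPM in cdKO samples. The V0 and V1 genes of this list all fell under the filter, so the sum is no measure of those neurons. The part of these cell populations in the Irx values was not tested.

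The other TALE homeobox genes include the Meis and Pbx cofactors of Hox proteins. All 12 were tested, and 0 passed in either direction (edgeR, 0 also at an unadjusted p under 0.05), with a median log2 fold change of -0.052. Meis3 was at 597 ± 187 CPM in control and 632 ± 280 CPM in cdKO samples, Meis1 at 201 ± 50.5 and 182 ± 53.9 CPM, and Meis2 at 110.1 ± 24.8 and 98.2 ± 22.3 CPM.

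The axial make-up of the samples varied within groups. Lumbar Hox genes (Hox10 and Hox11 paralogs) summed to 0.873 and 1.23 CPM in control replicates 1 and 5, to 28.9 to 50.2 CPM in the other control samples and to 13.3 to 94.2 CPM in cdKO samples, and 0 of 6 passed (edgeR, 1 higher at an unadjusted p under 0.05). Their median log2 fold change was 1.02, with 6 of 6 above 0. The 6 ranged from 0.84 to 2.82, and from 0.32 to 1.23 without cdKO replicate 5, which had the highest sum. Cervical and brachial Hox genes summed to 115 to 170 CPM in control and 89.3 to 227 CPM in cdKO samples, and 0 of 9 passed at either threshold. The part of axial level in the Irx values was not tested.

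Among genes of other cell types, erythroid genes summed to 0.872 to 18.5 CPM in control and 2.59 to 63.2 CPM in cdKO samples, with 5 of 6 tested, 0 passing and 1 higher at an unadjusted p under 0.05. Their median log2 fold change was 2.10, and 5 of 5 were above 0. The 5 ranged from 0.31 to 2.16, and from 0.58 to 1.99 without cdKO replicate 5, which had the highest sum. Mesenchyme genes summed to 8.35 to 21.5 and 11.8 to 24.2 CPM, with 10 of 10 tested, 0 passing and 1 higher at an unadjusted p under 0.05, and with a median log2 fold change of 0.51 and 9 of 10 above 0. Dorsal interneuron genes reached 4.61 CPM at most, endothelial genes 3.25, macrophage genes 6.93 and ectoderm genes 5.43 CPM, with 0 passing at either threshold. Most of the macrophage sum came from Csf1r, at 4.23 ± 0.817 CPM in control and 4.30 ± 1.24 CPM in cdKO samples. The dorsal maximum came mostly from Pou4f1, at 4.19 CPM in a cdKO sample. These 2 sums are thus no measure of those cells. The part of other cell types in the Irx values was not tested.

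Promoter windows of RefSeq (GRCm38.p6, windows around the start of the gene) were given for Irx2, Irx3 and Irx4. That of Irx3, chr8:91801605-91801904, lies inside the gene as GENCODE M21 annotates it and does not hold the start given there. They were searched on both strands for ATCAAT and ATCGAT, the core letters that Onecut factors bind. Neither was found in the 3 windows, and across all 32851 promoters 7.54% held ATCAAT, 0.925% ATCGAT and 8.40% either. The absence of these letters from such short windows says nothing about binding elsewhere.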

How the data were processed

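RNA-seq of 10 samples, 5 control and 5 cdKO, was analysed. The authors deposited whole-number counts per exon bin, not normalized. The submitters' processing notes name GRCm38, bcl2fastq 2.17, Trimmomatic 0.36, STAR 2.5.2b, Subread 1.5.2 and DESeq2, without their roles. The study's methods name an ultra-low input library and the labels a NEBNext Ultra kit. The sample descriptions give differing embryonic days, and e10.5 was taken from the titles. Of 49644 gene identifiers 49384 were found in GENCODE M21. Bins were summed per gene, and 3988 bins that several joined genes share, with 1.17% of counts, were left out. A read that spans several bins can count on each.

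edgeR 4.0.16 in R 4.3.3 was used for the filter (filterByExpr, minimum count 10), TMM scaling and the quasi-likelihood test (Benjamini-Hochberg threshold 0.05). CPM values use the TMM-scaled library size, and CPM per kb divides by the bases of a gene's bins. The fits were tested on simulated counts. Alternatives were DESeq2 1.42.0, limma 3.58.1 (voom with sample quality weights), other scalings, filters and bins, leaving out single samples, and a block for the replicate number. The 3′ exon alone and Irx6 without both cdKO replicate 5 and the antisense bin were added after seeing the data. No 2 samples of a group were duplicates (chi-square per degree of freedom 110.8 to 1737.4 over 20 pairs). Members and gene lists were chosen with earlier results of these data known. Genes named are the members, the 3 genes most like each tested member, Oc1 to Oc3, antisense neighbours, and in each gene list those that passed, otherwise up to 3 of the highest mean CPM, with Olig1, Olig2, Nkx2-2, Nkx6-1, Pax6 and Dbx2. Some genes and 1 gene list that fall under this rule are not reported here. Mnx1 and Pax7 were added after their values were seen. No protein sequences were used here.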

Additional observations from a re-analysis of the deposited data

Results flagged for a closer look

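Among 26 groups of 5 samples examined for a sample far from the others (Dixon's 95% critical value for 5 samples), 5 were flagged, where chance gives about 1 in 20, or 1.3. In control samples, Irx6 was at 3.332 CPM in replicate 1 against 0.7238 to 1.342 in the others, and Irx1 was at 0.7575 CPM in replicate 2 against 0.3638 to 0.4745 in the others. The other 3 flags fell on cdKO replicate 5. The share of counts on the 3′ exon was 25.38% for Irx3 against 12.5 to 14.83% in the other cdKO samples, 91.22% for Irx5 against 57.68 to 61.07%, and 100% for Irx6 against 20 to 40%. The share for Irx6 rested on 4 counts of the gene in cdKO replicate 5 and on 10 to 30 in the other cdKO samples.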

How the results depend on the processing

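The log2 fold changes of Irx1 (0.06 to 0.70), Irx3 (-0.62 to -0.32) and Irx5 (-0.59 to -0.33) kept their direction under all 20 alternatives each and did not pass the test in any that gave a p. For Irx1 the direction on its 3′ exon alone rested on cdKO replicate 5, with a ratio of 1.45 with that sample and 0.658 without it. The IrxB level (-0.66 to -0.41) kept its direction under 14. Irx2 changed sign with limma-voom with sample quality weights (0.25), on its 3′ exon alone (0.09, a ratio of 0.840 without cdKO replicate 5) and without control replicate 2 (0.05), and ranged from -0.37 to 0.05 with 1 sample left out. Irx6 was at -2.04 with limma-voom, -3.28 on the highest bin and -2.05 on its 3′ exon alone, and at -2.72 to -2.01 with 1 sample left out, the last without control replicate 1. On the longest bin of each gene, the mean log2 ratio of Irx1 over Irx6 was 1.13, against 0.33 over all bins, given without a test.

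The count of genes passing was 0 in edgeR, 1 with library size only, 1 without the filter, 20 with DESeq2, 13 with limma-voom, and 0 to 4 with 1 sample left out (4 without control replicate 5, 1 without cdKO replicate 5). With the replicate block it was 0, with 462 genes at an unadjusted p under 0.05 against 888 without the block. The numbers were not taken to pair the samples. Deviations of same-numbered samples had correlations of 0.094, -0.32, 0.17, 0.43 and 0.36 (mean 0.146, against -0.016 between different numbers), 4 samples correlated best with their own number, and the deposited counts of some samples carry another number than the title. Under the block no tested member changed its call. At an unadjusted p under 0.05, the count ranged from 311 to 2116 over all alternatives. Irx6 and Irx4 are limited by depth, with 4 to 30 and 0 to 9 counts per cdKO sample.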
